A study of Bos taurus with 16 samples.

Results

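The calpain and calpastatin genes of calf skeletal muscle were CAPN1, CAPN2, CAPN3, CAPNS1 and CAST, 5 of the 34109 genes in the expression tables. They were chosen by name, with earlier results of these data known. Each was found through its NCBI gene identifier (281661, 281662, 281663, 281664 and 281039, respectively). RNA was sequenced from the round and the sirloin muscle, taken just after birth, of 8 Hanwoo (Korean native cattle) calves. The dams of 4 calves were fed 100% of their requirement (control) and those of the other 4 calves 150% (treated) from mid to late pregnancy. Both muscles of a calf carry the same number in the labels, so the muscles were compared within calf, and the diets were compared between calves within each muscle, with 4 calves per diet. All 6 skeletal muscle markers (ACTA1, CKM, MB, DES, TNNT3 and MYLPF) were detected in every group, with a summed level of 46814 to 96767 CPM (counts scaled to library size).

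Calpains are cysteine proteases that calcium ions switch on, and in muscle they cut structural proteins of the sarcomere and cytoskeleton instead of degrading them completely. CAPN1 and CAPN2 encode the catalytic subunits of the µ-calpain and m-calpain forms, CAPNS1 encodes the small regulatory subunit that both forms share, and CAST encodes calpastatin, their specific inhibitor. CAPN3 encodes a muscle-specific calpain that binds titin, and loss of its function causes a limb-girdle muscular dystrophy in humans. In cattle the calpain system is known above all for the tenderization of meat after slaughter. Messenger RNA was measured here, and neither enzyme activity nor protein.

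Library depth ranged from 44473011 to 72446933 gene counts. Each member had between 777 and 35401 counts in a library, so that counting error was at most 3.59% of a value and was small beside the spread between calves. In bulk tissue, fewer cells of a type and less RNA per cell cannot be told apart. Gene-level values sum all transcripts of a gene, which for CAST are 16 RefSeq models and for CAPN2 1 model. The RefSeq table places no other gene over the members except the microRNA gene MIR2407, which overlaps CAPN1.

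On the TPM scale, which expresses each gene as its share of all transcripts after division by gene length, CAPN3 was the most abundant member and CAPN1 the least. CAPN3 averaged 217 TPM over the 16 libraries, with a range of 132 to 290.0 TPM, which placed it at the 98.0 percentile of the 22877 detected genes. The regulatory subunit gene CAPNS1 averaged 130 TPM (92.1 to 181 TPM). The inhibitor gene CAST averaged 40.5 TPM (28.4 to 64.1 TPM). Both conventional catalytic subunits lay below their inhibitor on average: CAPN2 averaged 27.8 TPM (19.7 to 63.6 TPM) and CAPN1 averaged 19.7 TPM (8.42 to 31.6 TPM).

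This order held in most single libraries. CAPN3 was above CAPNS1 in 15 of 16 libraries, CAPNS1 above CAST in 16 of 16, CAST above CAPN2 in 15 of 16, and CAPN2 above CAPN1 in 13 of 16. Only CAPNS1 and CAST were neighbours whose ranges of TPM did not overlap. The other neighbouring pairs overlapped in range, although within a library their order was mostly kept.

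**Figure D1:**
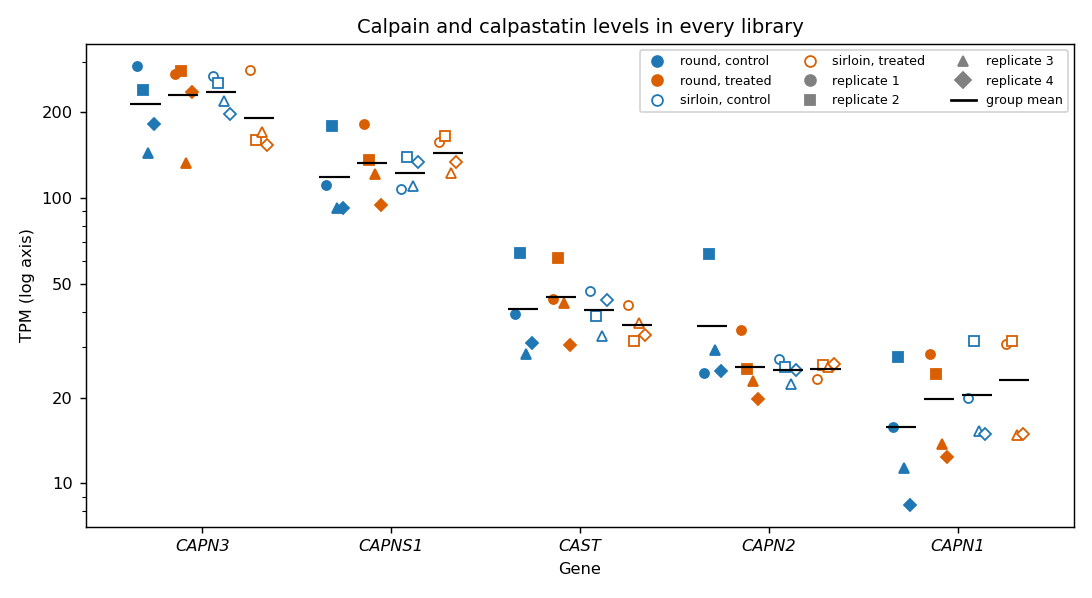
TPM (log axis) of the 5 genes in each of the 16 libraries, coloured by diet, filled for round and open for sirloin, with marker shape for the replicate and a bar for each group mean (n = 4). CAPN3 sits between 132 and 290.0 TPM, while CAPN1 spans 8.42 to 31.6 TPM with the same calves high in both muscles.

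None of the 5 genes differed between the maternal diets at an adjusted p below 0.05 in either muscle. With edgeR's quasi-likelihood test and Benjamini-Hochberg adjustment over all tested genes, 0 of 5 members were called in round muscle and 0 of 5 in sirloin muscle, and 0 of 5 in each also had an unadjusted p below 0.05. DESeq2 and limma-voom called 0 of 5 as well. Among all genes the same test called 4 of 21677 in round muscle (0.0185%) and 2 of 21776 in sirloin muscle (0.00918%), and 4.41% and 3.91% had an unadjusted p below 0.05. In no member did the 4 treated and the 4 control libraries of a muscle separate without overlap, which they did for 1.76% of genes in round and 1.68% in sirloin muscle. The levels that follow are CPM after TMM scaling of library sizes, a scale for comparing 1 gene between libraries.

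CAPN1, the µ-calpain catalytic subunit gene, measured 32.2, 45.9, 21.8 and 17.0 CPM in round muscle of control calves 1 to 4 and 51.9, 38.6, 24.6 and 22.8 CPM in that of treated calves 1 to 4. In sirloin muscle it measured 39.4, 54.9, 28.7 and 26.2 CPM in control calves and 50.5, 49.4, 24.2 and 24.9 CPM in treated calves. Each diet therefore held both high and low calves, and the ranges of the diets overlapped in both muscles. The diet difference (treated over control) was 0.27 on the log2 scale in round muscle (SE 0.359, adjusted p = 0.952, edgeR) and -0.00 in sirloin muscle (95% interval -0.72 to 0.72).

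CAPN2, the m-calpain catalytic subunit gene, measured 52.8, 112, 60.3 and 53.4 CPM in round muscle of control calves 1 to 4 and 66.3, 42.8, 43.3 and 38.6 CPM in that of treated calves. In sirloin muscle it measured 57.6, 47.6, 44.5 and 47.1 CPM in control calves and 40.6, 43.1, 44.9 and 46.4 CPM in treated calves. Sirloin levels were narrow, within 40.6 and 57.6 CPM, and 1 round library stood far above all others. The diet difference of CAPN2 in round muscle was -0.52 (SE 0.300, 95% interval -1.17 to 0.14, adjusted p = 0.864, edgeR), and without control replicate 2 it was -0.23. In sirloin muscle it was -0.17 (SE 0.170, adjusted p = 0.929).

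The CAPN2 level of 112 CPM came from the library that also stood apart in connective tissue genes. The summed level of 6 fibroblast markers in round muscle of control replicate 2 was 5555 CPM, against 845 to 953 CPM in the other control round libraries and 546 to 1353 CPM in treated round libraries. COL1A1, a chain of type I collagen, reached 2278 CPM there against 108 to 381 CPM in the other 7 round libraries. All 6 fibroblast markers were detected in every group, and the part of this marker signal in the CAPN2 level was not tested. The sirloin library of the same calf had the highest fibroblast sum among control sirloin libraries, 1450.0 CPM, with CAPN2 at 47.6 CPM. Among all sirloin libraries the highest sum was that of treated replicate 4, 1739 CPM, with CAPN2 at 46.4 CPM. Round muscle of control replicate 2 also held the highest CAPN1, CAPNS1 and CAST among control round libraries. Without that calf their diet differences in round muscle were 0.54, 0.24 and 0.21, against 0.27, 0.11 and 0.05 with all calves.

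**Figure D2:**
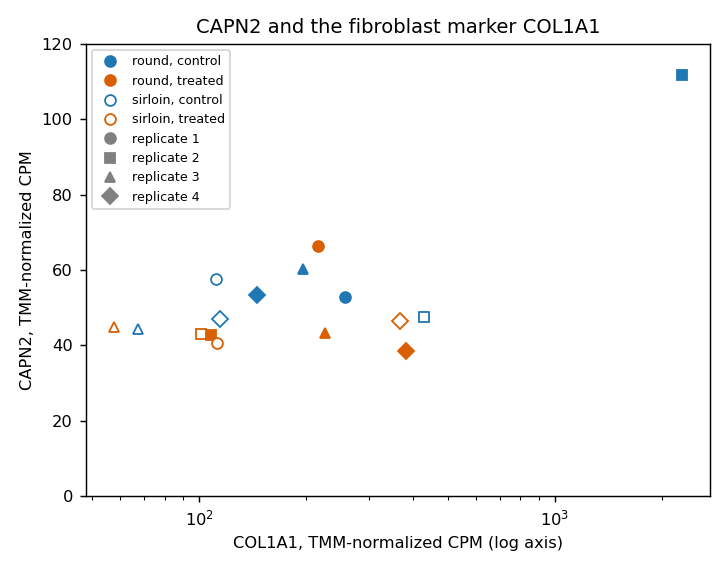
CAPN2 against the fibroblast marker COL1A1 (log axis), both in TMM-normalized CPM, for the 16 libraries, with colour for diet, fill for muscle and shape for replicate. Round muscle of control replicate 2 lies alone at 112 CPM of CAPN2 and 2278 CPM of COL1A1, and the other libraries hold 38.6 to 66.3 CPM of CAPN2.

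CAPN3, the titin-bound muscle calpain gene, measured 608, 423, 299 and 403 CPM in round muscle of control calves 1 to 4 and 504, 462, 252 and 467 CPM in that of treated calves. In sirloin muscle it measured 549.7, 475, 433 and 362 CPM in control calves and 477, 259, 296 and 282 CPM in treated calves. In sirloin muscle 3 treated calves lay below every control calf, and treated replicate 1 lay within the control range. The diet difference in sirloin muscle was -0.47 (SE 0.243, 95% interval -1.01 to 0.07, adjusted p = 0.876, edgeR), and that in round muscle was -0.02 (SE 0.300). The difference between these diet effects was -0.45 (95% interval -1.07 to 0.17, adjusted p = 1), so a muscle-dependent diet effect was not detected.

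CAPNS1, the shared regulatory subunit gene, measured 100.1, 132, 79.8 and 82.3 CPM in round muscle of control calves 1 to 4 and 147, 96.3, 95.5 and 77.5 CPM in that of treated calves. In sirloin muscle it measured 95.1, 108, 91.8 and 106 CPM in control calves and 114.5, 114, 89.1 and 99.2 CPM in treated calves. Group means were close, with 98.5 ± 24.0 against 104 ± 29.8 CPM (SD, n = 4) in round muscle and 100.1 ± 7.83 against 104 ± 12.2 CPM in sirloin muscle for control and treated calves. The diet difference was 0.11 (SE 0.269) in round and 0.05 (SE 0.177) in sirloin muscle on the log2 scale.

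CAST, the calpastatin gene, measured 118, 155, 81.5 and 93.3 CPM in round muscle of control calves 1 to 4 and 117, 145, 113 and 82.3 CPM in that of treated calves. In sirloin muscle it measured 139, 99.9, 91.1 and 112 CPM in control calves and 101, 73.9, 88.2 and 82.2 CPM in treated calves. Here too 3 of the 4 treated sirloin libraries lay below all control sirloin libraries, with treated replicate 1 inside the control range. The diet difference of CAST was -0.36 in sirloin muscle (95% interval -0.80 to 0.08, adjusted p = 0.876, edgeR) and 0.05 in round muscle (SE 0.268). CAPN3 and CAST were thus the members with the lowest p in sirloin muscle, and neither passed adjustment.

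Fibre type and fat markers also moved among these libraries. The summed slow fibre markers were 12025 to 26285 CPM in treated and 19838 to 24160 CPM in control sirloin muscle, and 13849 to 72665 against 13351 to 20050 CPM in round muscle. Round muscle of treated replicate 2 held that maximum of 72665 CPM together with the lowest fast fibre sum, 30183 CPM, and had 145 CPM of CAST. In sirloin muscle the fast fibre sums of 3 treated calves, 53673 to 62399 CPM, lay below those of all control calves, 64977 to 99991 CPM, and treated replicate 1, at 71716 CPM, lay within the control range, as it did for CAPN3 and CAST. The summed skeletal muscle markers, 2 of which are also in the fast fibre list, were 48160 to 59193 CPM in treated and 50196 to 96767 CPM in control sirloin muscle. Log2 diet differences of the 6 genes there were -1.05 to -0.01 (median -0.37). Of the 6, 0 passed the adjusted p by edgeR, beside 0.00918% of all genes, and 1 had an unadjusted p below 0.05, beside 3.91% of all genes.

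Sirloin muscle of treated replicate 4 had an adipocyte marker sum of 2341 CPM against at most 3.01 CPM in the other treated and 5.20 CPM in control sirloin libraries. The part of these fibre, muscle and adipocyte markers in the CAPN3 and CAST values was not tested.

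**Figure D3:**
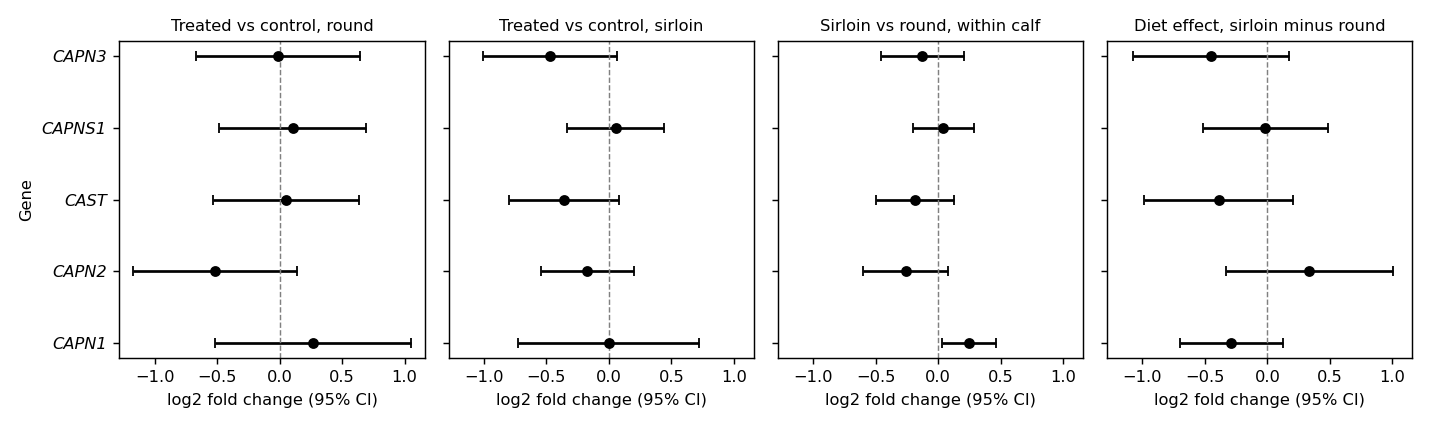
Log2 fold changes (points) with 95% intervals (bars) from edgeR for the 5 genes in the diet comparison of each muscle, sirloin against round within calf, and the difference between the diet effects. The interval of CAPN1 between the muscles, 0.03 to 0.46, is the one that does not include 0.

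Between the muscles of the same calf, 0 of 5 members passed an adjusted p of 0.05 with edgeR or with DESeq2, where 122 of 22877 genes (0.533%) were called by edgeR. CAPN1 had an unadjusted p below 0.05, 1 member of 5 against 11.2% of all genes. Its sirloin level exceeded its round level in 6 of 8 calves, in 4 of 4 control and 2 of 4 treated calves. The mean was 37.3 ± 12.9 CPM in sirloin and 31.8 ± 12.5 CPM in round muscle (SD, n = 8), and the difference within calf was 0.25 on the log2 scale (SE 0.0990, 95% interval 0.03 to 0.46, adjusted p = 0.345, edgeR). In the treated calves 1 and 3, sirloin and round differed little, with 50.5 against 51.9 CPM and 24.2 against 24.6 CPM.

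The other members showed no common direction between the muscles. CAPN2 was higher in sirloin in 4 of 8 calves, with a difference of -0.26 (SE 0.156, adjusted p = 0.619) that was -0.13 without control replicate 2. CAPN3 was higher in sirloin in 3 of 8 calves (-0.13, SE 0.153) and CAPNS1 in 4 of 8 (0.04, SE 0.112). CAST was higher in sirloin in 3 of 4 control calves and in 0 of 4 treated calves (-0.19 over all, SE 0.144, adjusted p = 0.744), although in treated replicate 4 it was 82.2 against 82.3 CPM. The difference in diet effect between the muscles was -0.39 for CAST (95% interval -0.99 to 0.21, adjusted p = 1, edgeR). It was not called for any of the 5 genes, where 1 of 22877 genes (0.00437%) was, and 0 of 5 had an unadjusted p below 0.05 against 3.78% of genes.

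**Figure D4:**
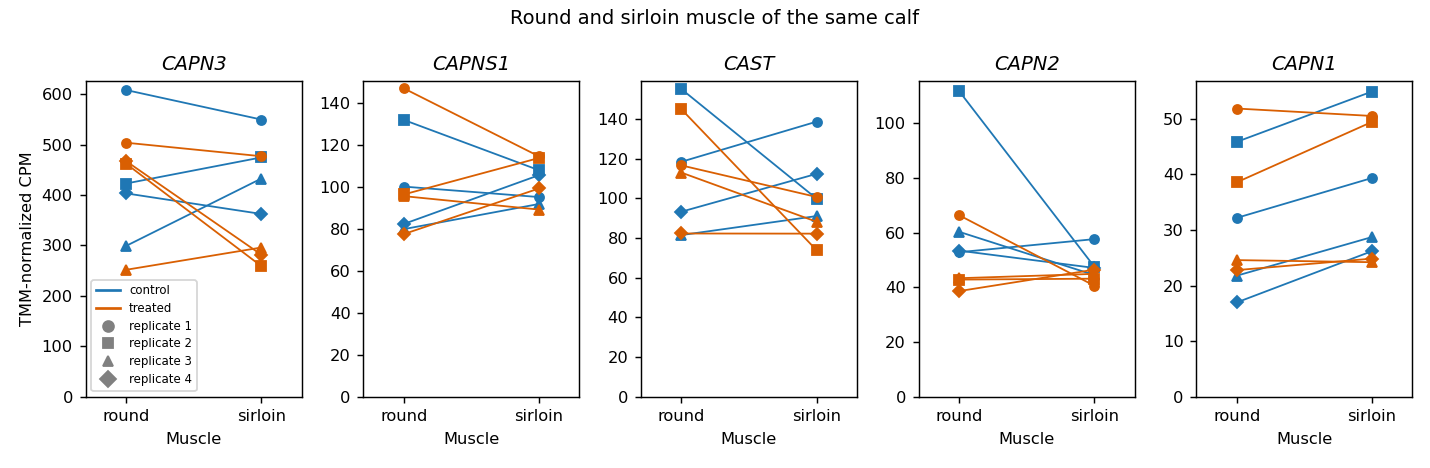
TMM-normalized CPM of the 5 genes in round and sirloin muscle, with a line joining both muscles of each of the 8 calves, coloured by diet and marked by replicate. Lines cross for every gene, and CAPN1 spans 17.0 to 51.9 CPM in round and 24.2 to 54.9 CPM in sirloin muscle, with the same 3 calves highest in both.

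The spread of CAPN1 between calves was larger than the spread of its differences within calf. Its round and sirloin levels ran together over the 8 calves, with Pearson r = 0.921 (exact permutation p = 0.00392, adjusted p = 0.0581 over 12315 genes) and Spearman rho = 0.762 (exact permutation p = 0.0368, adjusted p = 0.162). Without control replicate 4 and treated replicate 1, the calves farthest from the median in round muscle, r was 0.956. With the diet means removed, r over all calves was 0.957. Control replicate 2 and treated replicates 1 and 2 were the 3 highest calves in both muscles. The libraries of control replicate 2 were also the deepest of each muscle, with 72446933 counts in round and 72165291 in sirloin. Their TPM summed to 1000000, against 999756 to 999858 in all other libraries. The part of these library traits in the correlation was not tested. On the log2 scale, the SD between calves of the mean of both muscles was 0.524, and that of the sirloin minus round difference within calf was 0.223. These SDs are not on the same scale, since a difference between libraries varies more than their mean when calves do not differ. The correlation of CAPN1 was above that of 96.6% of genes, whose median was 0.590, and it did not pass adjustment, while 3.89% of genes did.

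The remaining members followed the calf less. Pearson r between the muscles was 0.550 for CAPNS1, 0.350 for CAPN3, 0.0229 for CAPN2 and 0.0113 for CAST (exact permutation p = 0.167, 0.394, 0.954 and 0.979), and rho was 0.571, 0.405, 0.0476 and 0.0952 (exact permutation p = 0.151, 0.327, 0.935 and 0.840). No value of these 4 genes passed adjustment, the smallest adjusted p being 0.294 for r and 0.312 for rho. The value for CAPNS1 rested on 2 calves, since r was 0.0319 without control replicate 2 and treated replicate 1. For CAPN2 and CAST the SD of the difference within calf, 0.504 and 0.444, was larger than the SD between calves, 0.255 and 0.224. The medians over all genes had the same order, 0.403 within calf and 0.375 between calves. As these SDs are on unlike scales, this order does not show more variation within calves than between them.

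The ratio of protease to inhibitor transcripts was then taken within each library on the TPM scale, as a description with no test. CAPN1 to CAST was higher in sirloin than in round muscle in 8 of 8 calves. In control calves 1 to 4 the ratio was 0.402, 0.432, 0.399 and 0.270 in round and 0.421, 0.816, 0.464 and 0.339 in sirloin muscle. In treated calves it was 0.644, 0.394, 0.321 and 0.404 in round and 0.732, 1.00, 0.405 and 0.450 in sirloin muscle. The shift was small in most calves, with a median of 1.21-fold and a range of 1.05 to 2.54-fold. It was seen on the CPM scale in 8 of 8 calves as well (median 1.22-fold). The largest shifts, 1.89 and 2.54-fold, were in control replicate 2 and treated replicate 2, which are unrelated by number. CAST was 155 CPM in round against 99.9 CPM in sirloin muscle of the former, and 145 against 73.9 CPM in the latter. These round libraries also held the highest fibroblast sum (5555 CPM) and the highest slow fibre sum (72665 CPM), respectively. The part of these markers in the ratio was not tested. No rate for ratios of other gene pairs was computed, and this was 1 of 5 ratios examined.

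The other 4 ratios did not have all calves in 1 direction. CAPN2 to CAST was higher in sirloin in 3 of 8 calves (median 0.671 over 16 libraries) and CAPN3 to CAST in 5 of 8 (median 5.37). The ratio of CAPNS1 to the sum of both catalytic subunits it pairs with was higher in sirloin in 6 of 8 calves and had a median of 2.87 and a range of 1.96 to 3.34, so transcripts of the regulatory subunit exceeded those of its partners in every library. CAPN1 to CAPN2 was higher in sirloin in 6 of 8 calves and had a median of 0.636, and it was above 1 only in the sirloin libraries of replicate 2 of both diets and treated replicate 1.

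Correlations between members ranged widely. Over the 16 libraries, which share calves in pairs, Pearson r of log2 CPM was 0.800 between CAPN1 and CAPNS1, 0.526 between CAPN3 and CAST, 0.526 between CAPN2 and CAST, and 0.225 between CAPN1 and CAPN2. The 3 genes nearest to CAPN1 were SNX12 (0.961), SNX15 (0.939), both sorting nexins of the endosome, and the calcium-dependent kinase CAMK2G (0.927). Nearest to CAPN2 were the nuclear lamina gene LMNA (0.905), the calcium-binding annexin gene ANXA2 (0.904) and TRAFD1 (0.891). Nearest to CAPN3 were BIN1 (0.934), which shapes the membrane of transverse tubules, the small heat shock gene HSPB2 (0.874) and SYPL2 (0.873), a protein of the triad junction. CAPNS1 ran with PAK4 (0.876), SPRYD3 (0.872) and MAPK3 (0.871), and CAST with the M-band gene MYOM3 (0.874), the hypoxia-responsive factor EPAS1 (0.835) and POU6F1 (0.825). These are the highest of 12315 genes and serve as a description.

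Of 12 other calpain genes listed, 11 were found in the tables and 6 had a mean of at least 1 CPM, namely CAPN5, CAPN6, CAPN7, CAPN10, CAPN11 and CAPN15. CAPN6, a calpain without the catalytic cysteine, averaged 30.5 TPM, close to CAPN2, and CAPN7 averaged 18.1 TPM, close to CAPN1. CAPN15 averaged 9.44 TPM, CAPN11 5.24 TPM, CAPN10 4.55 TPM and CAPN5 2.53 TPM. CAPN12, CAPN13, CAPN14 and CAPNS2 had no count in any library, which allows a level of up to 0.00338 CPM over the 16 libraries by counting error alone, and CAPN8 had at most 12 counts.

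No other calpain gene was called in any comparison, with 0 of 7 tested passing the adjusted p in each by edgeR. The shares of all genes called were 0.0185% for diet in round, 0.00918% for diet in sirloin, 0.533% between the muscles and 0.00437% for the difference in diet effect. An unadjusted p below 0.05 was seen for 1 of 7 genes, CAPN11, in each diet comparison and in the comparison of the muscles. For the difference between diet effects 0 of 7 reached it. The shares of all genes at an unadjusted p below 0.05 were 4.41%, 3.91%, 11.2% and 3.78% in the same order. CAPN11 was 44.1 CPM in sirloin muscle of treated replicate 2 against 2.32 to 9.08 CPM in all other libraries, with a diet difference of 0.88 in round (adjusted p = 0.864, edgeR) and 1.73 in sirloin muscle (adjusted p = 0.876), the latter 0.48 without that calf. CAPN5 followed the calf as CAPN1 did, with r = 0.957 between the muscles (exact permutation p = 0.00062, adjusted p = 0.0404). Its rho was 0.929 (exact permutation p = 0.00223, adjusted p = 0.0733). Of all genes, 3.89% passed adjustment by r and 0% by rho. Control replicate 2 had 20.9 CPM of CAPN5 in round and 19.1 CPM in sirloin muscle against at most 11.6 CPM in all other libraries. Without this calf and treated replicate 1, r was 0.756. The libraries of control replicate 2 were also the deepest of each muscle, and the part of this in r was not tested. Over the 16 libraries CAPN5 had r = 0.790 with CAPN1, whereas CAPN15 had r = -0.73 with CAPN1 and CAPN7 had r = -0.85 with CAST.

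**Figure D5:**
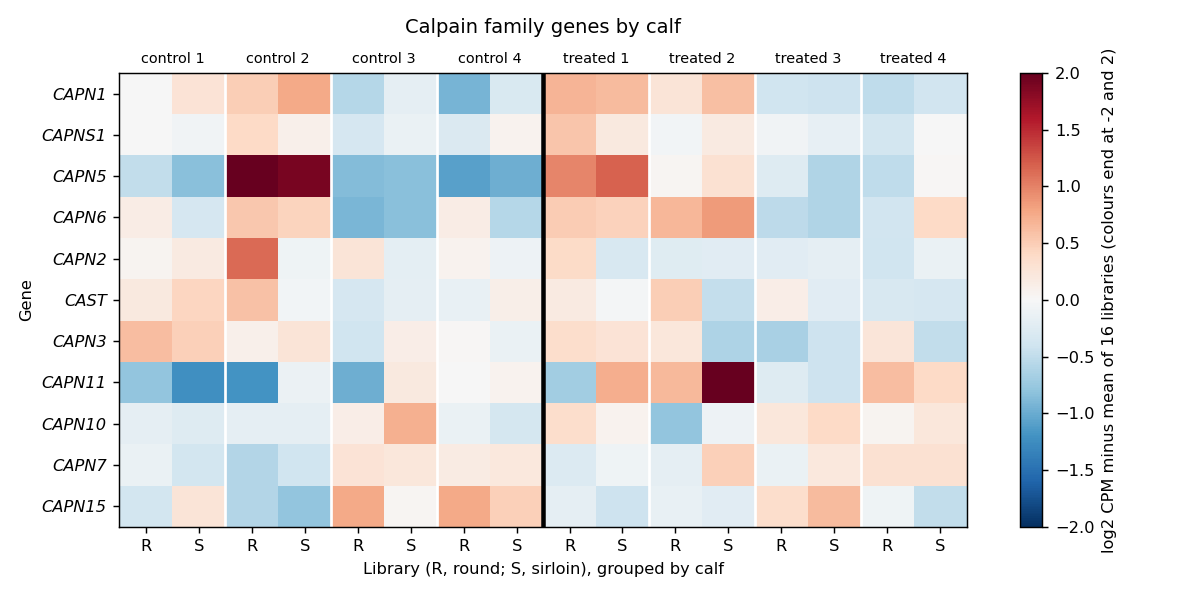
Log2 CPM of 11 calpain family genes minus each gene's mean over 16 libraries, with round (R) and sirloin (S) side by side for each calf and a black line between control and treated calves. CAPN1 and CAPN5 are above their means in both muscles of control replicate 2 and treated replicates 1 and 2, and CAPN2 stands out in 1 library at 112 CPM.

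Among genes that work with or beside the calpain system, 0 passed the adjusted p by edgeR in any of the 4 comparisons. The counts at an unadjusted p below 0.05 that follow stand beside shares of all genes of 4.41% for diet in round muscle, 3.91% for diet in sirloin muscle, 11.2% for sirloin against round and 3.78% for the difference in diet effect. Among 16 calpain substrates of the sarcomere and cytoskeleton, an unadjusted p below 0.05 was reached by 0 higher and 1 lower gene for diet in round muscle, 0 and 1 in sirloin muscle, 2 and 2 in sirloin against round muscle, and 0 and 2 for the difference in diet effect. Of 12 partners of CAPN3 and dystrophy genes the corresponding numbers were 0 and 1, 0 and 2, 3 and 1, and 1 and 1. Among 13 tested cathepsins and cystatins, the lysosomal proteases and their inhibitors, they were 0 and 1, 2 and 1, 3 and 1, and 0 and 0, and among 11 caspases and inhibitors 0 and 0, 0 and 1, 0 and 2, and 0 and 0.

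The median log2 difference of the 5 calpain system genes was 0.05 for diet in round muscle, -0.17 for diet in sirloin muscle and -0.13 for sirloin against round, beside medians over all genes of 0.02, 0.03 and 0.00. The genes of these lists named next were chosen after their values were seen, and some other genes of the lists differed by more. ANKRD1, a titin-binding stress protein, was -3.00 for diet in round muscle (SE 0.819, adjusted p = 0.864, edgeR) and -2.24 for sirloin against round (adjusted p = 0.0896). The actin cross-linker FLNC, a known calpain substrate, was -1.19 (adjusted p = 0.864) and -1.17 (adjusted p = 0.185) in the same comparisons. CMYA5, a large protein of striated muscle that interacts with titin, was 0.57 higher in sirloin than in round muscle (log2 scale, adjusted p = 0.0667). The cathepsin gene CTSC was -0.55 in that comparison (adjusted p = 0.0760). At an unadjusted p below 0.05 by edgeR, CTSC was the 1 lower gene of its list in sirloin muscle. The 3 higher ones were CTSB (0.41), CTSD (0.38) and CTSF (0.57). Among the substrates FLNC and FLNA (-0.76) were lower, and TLN2 (0.40) and DES (0.35) were higher. The share of all genes at that p was 11.2%.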

How the data were processed

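Total RNA of round and sirloin muscle was sequenced. The deposited tables hold raw read counts per gene and TPM made by the authors, 34109 NCBI gene identifiers each, of which 30762 (90.2%) had a RefSeq symbol. The labels give poly(A) selection and the submitters' processing notes name FastQC, Trimmomatic, STAR, featureCounts, DESeq2 and the build ARS-UCD1.2, whereas the study's methods describe a stranded kit with depletion of ribosomal and globin RNA, HISAT2 and StringTie; which route made the tables is not settled by them. Reads shared by overlapping or near-identical genes depend on that route, and MIR2407 overlaps CAPN1. Tables of the authors' own comparisons hold fold changes and p-values and were not used. The RefSeq table is of another build, so no coordinates are given.

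Counts were tested with edgeR 4.0.16 (quasi-likelihood, TMM factors, genes with at least 1 count in any library) in R 4.3.3, per muscle for diet and with calf as a block for muscle and for the difference in diet effect; an adjusted p below 0.05 was a call. SE and intervals (95%) refer to log2 fold changes. The model was tested on simulated data. DESeq2 1.42.0, limma 3.58.1 (voom, and log2 TPM with a pseudocount of 1 or 0.1), other scaling factors, filters, blocks and left-out calves were alternatives. Correlations used log2 CPM (prior count 2, mean CPM of at least 1) and exact permutation tests in scipy 1.17.1.

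Calves are separate animals. Both muscles of a calf deviated together (residual r 0.311 to 0.765 in 8 calves, against -0.52 to 0.46 for muscles of different calves), and the labels give both the same number. By rule, named genes were the 5 members in every comparison and other calpains with a mean of at least 1 CPM. The rule also took genes of other lists with an adjusted p below 0.05, and the 3 genes nearest to each member. ANKRD1, FLNC, CMYA5, CTSC and the cathepsin and substrate genes named beside them fall outside this rule. They were chosen after their values were seen. Members and lists were chosen with earlier results of these data known. No sequences are printed, since none were used here.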

Additional observations from a re-analysis of the deposited data

Results flagged for a closer look

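Within groups of 4 libraries, 10 of 44 tested sets of values held 1 library whose gap to its nearest neighbour took most of the group's range (Dixon's test at the 95% level). Chance gives about 1 in 20 for independent, normally distributed values. These sets hold CPM without a log and share libraries and calves, so that rate cannot be set against 10 of 44. High and low refer below to the other libraries of the same muscle and diet. CAPN2 was high in round muscle of control replicate 2 (112 CPM) and of treated replicate 1 (66.3 CPM). CAPN3 was low in round muscle of treated replicate 3 (252 CPM) and high in sirloin muscle of treated replicate 1 (477 CPM). CAPN5 was high in both muscles of control replicate 2, with 20.9 CPM in round and 19.1 CPM in sirloin muscle. CAPN10 was high among control calves in both muscles of control replicate 3, with 7.24 CPM in round and 10.8 CPM in sirloin muscle. In round muscle, treated replicates 1 and 3 lay above it, at 8.42 and 7.72 CPM. CAPN11 was high in sirloin muscle of treated replicate 2 (44.1 CPM), and CAPN15 in round muscle of treated replicate 3 (55.6 CPM) among treated calves.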

How the results depend on the processing

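No member was called under any alternative, the smallest adjusted p being 0.143 (CAPN1, sirloin against round); directions held in 81 of 90 alternatives for diet in round, 76 of 90 for diet in sirloin, 92 of 95 for muscle and 78 of 85 for the difference in diet effect. Counts of all genes called moved more. For diet in round muscle 4 became 45 (DESeq2), 1 (voom), 0 (log2 TPM + 1), 1 (log2 TPM + 0.1), 2 with the replicate block and 0 to 3 without single calves; for diet in sirloin 2 became 13, 0, 0, 1, 0 and 0 to 1. For muscle 122 became 829 (DESeq2), 57 and 75 (TPM), 14 with no replicate block, 4 in treated calves only and 44 to 368 without single calves; for the difference in diet effect 1 became 5, 0, 0, 0 (no replicate block) and 0 to 2. Replicate numbers do not pair calves across diets (residual r -0.04 to 0.29 in round and -0.28 to 0.27 in sirloin). Leaving out both calves with libraries standing apart, chosen after seeing the data, gave 0, 0, 80 and 0 calls.

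TPM, which lacks TMM scaling, shifted the median gene by 0.12 (diet, round), 0.17 (diet, sirloin) and 0.08 (muscle). Some log2 differences changed sign, by most for CAPN5. Under TPM + 1 and + 0.1 these were CAPN3 diet round (0.091, 0.091), CAPN1 diet sirloin (0.14, 0.15), CAPN2 diet sirloin (0.012, 0.012), the CAPNS1 difference in diet effect (0.0496, 0.0497), CAPN5 diet round (0.076, 0.26) and sirloin (0.34, 0.59), and CAPN6 muscle (0.0295, 0.0298). CAPN1 diet sirloin was 0.0029 (DESeq2), 0.0028 (RLE), 0.0097 (upper quartile), 0.0072 (filterByExpr) and 0.41 without both calves. CAPN7 diet round was -0.018 (DESeq2), -0.018 (RLE), -0.0080 (upper quartile), -0.022 (filterByExpr), -0.0200 (all libraries in 1 fit) and -0.33 (without both calves). CAPN5 diet round was 0.067 (voom), 0.25 (replicate block) and 1.15 (without both calves), and diet sirloin 0.29, 0.45 and 1.38. In control calves only, the muscle difference was 0.10 for CAPN3, 0.0105 for CAST, -0.086 for CAPN5 and -0.0071 for CAPN7, and in treated calves only it was 0.19 for CAPN6. Without both calves it was -0.0096 for CAPN5, and the CAPN2 difference in diet effect was -0.051. Without single calves, diet in round ranged from -0.015 to 0.54 (CAPN1), -0.16 to 0.19 (CAPN3), -0.12 to 0.24 (CAPNS1), -0.10 to 0.21 (CAST), -0.76 to 0.98 (CAPN5), -0.11 to 0.28 (CAPN6), -0.18 to 0.12 (CAPN7) and -0.0090 to 0.31 (CAPN10). Diet in sirloin ranged from -0.19 to 0.24 (CAPN1), -0.00010 to 0.12 (CAPNS1), -0.47 to 1.27 (CAPN5), -0.0091 to 0.43 (CAPN10) and -0.45 to 0.052 (CAPN15). Muscle ranged from -0.0037 to 0.10 (CAPNS1), -0.0196 to 0.095 (CAPN5) and -0.16 to 0.043 (CAPN6), and the difference in diet effect from -0.14 to 0.12 (CAPNS1), -0.0501 to 0.27 (CAPN10), -0.15 to 0.76 (CAPN11) and -0.17 to 0.28 (CAPN15). The cause was not tested.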

Other observations

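Of the marker lists, ACTA2, the smooth muscle actin gene, was the 1 gene to pass the adjusted p by edgeR, at -0.69 on the log2 scale for sirloin against round muscle (adjusted p = 0.0423), with 45.6 ± 23.0 CPM in round and 26.4 ± 8.77 CPM in sirloin muscle (SD, n = 8).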
